A study of Malus domestica with 6 samples.

Results

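The expression of 2 gibberellin 2-oxidase (GA2OX) genes was analysed in apple seeds: MDP0000735747, the putative ortholog of *Arabidopsis thaliana GA2OX6*, and MDP0000137705, the putative ortholog of *A. thaliana GA2OX1*. They were taken by identifier, under the names used in the study. Values were deposited for 63517 gene models, of which these are 2. RNA came from seeds of lateral fruits (the mid-sized L2 class) and of central fruits, both collected from untreated adult Golden Delicious trees at 20 days after petal fall (DAPF). Each type of seed is represented by 3 libraries, and every library was made from pooled seeds of several fruitlets. Since the central flower of a cluster opens first, the position of the fruit and the age of its seeds cannot be told apart in these samples.

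Gibberellins (GAs) are diterpenoid plant hormones, which developing seeds make in large amounts. Their activity depends on the balance between synthesis, which ends with the oxidases that make the bioactive forms, and catabolism. GA 2-oxidases belong to the catabolic side: they add a hydroxyl group to GAs and thereby inactivate them, and several genes encode them in each plant genome. A transcript level says nothing by itself about the amount of enzyme or of hormone, neither of which was measured here.

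Levels are given as RPKM, reads per kilobase of gene model and per 1e+06 mapped reads. They are per length, which allows a comparison between genes of unlike length. Multiply mapped reads are included, so levels, shares and ranks are uncertain for genes with near-identical copies. Whether either gene of the pair has such copies was not tested. The reads behind each value were recovered from the RPKM values (whole reads in every library). The shortest model lengths that fitted were 1032 bases for the *GA2OX6* ortholog and 1014 bases for the *GA2OX1* ortholog. The libraries held between 14238640 reads (lateral replicate 1) and 37767724 reads (lateral replicate 2). On the *GA2OX6* ortholog a single read was worth 0.0676 RPKM in lateral replicate 1 and 0.0255 RPKM in lateral replicate 2, with the other libraries in between. Lateral replicates 1 and 2 were sequenced in lane 8, and lateral replicate 3 and all central libraries in lane 7. Among the gene models that the study names by identifier, none was used as a marker of a tissue, so markers of the seed, or of other tissues in the dissected material, were not checked.

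The *GA2OX6* ortholog was the weaker of the pair. It had 14.4, 15.3 and 23.0 RPKM in lateral replicates 1 to 3, against 0.716, 0.949 and 0.808 RPKM in central replicates 1 to 3. The lowest lateral library thus stood 15.2 times above the highest central library. Exact Poisson 95% intervals, which cover counting error only, ran from 12.5 to 16.5 RPKM in lateral replicate 1, from 14.1 to 16.6 RPKM in lateral replicate 2 and from 21.2 to 25.0 RPKM in lateral replicate 3. Lateral replicate 3 was therefore higher than the other lateral replicates by more than counting error, while those others were not distinguishable from each other. In central fruit seeds the widest interval, that of replicate 1, ran from 0.41 to 1.16 RPKM on 16 reads, and the intervals of all 3 central libraries overlapped.

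The *GA2OX1* ortholog was among the more abundant transcripts of both types of seed. It had 395, 298 and 387 RPKM in lateral replicates 1 to 3, against 122, 152 and 113 RPKM in central replicates 1 to 3. Its lowest lateral library was 1.96 times its highest central library, so the groups did not overlap either. With at least 2611 reads per library the counting intervals were narrow. That of lateral replicate 2, the lowest lateral library, ran from 292 to 303 RPKM and was clear of those of lateral replicates 1 (385 to 405 RPKM) and 3 (379 to 395 RPKM), which overlapped. In central fruit seeds the intervals of all 3 libraries were apart from one another, with replicate 2 the highest at 148 to 157 RPKM.

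**Figure D1:**
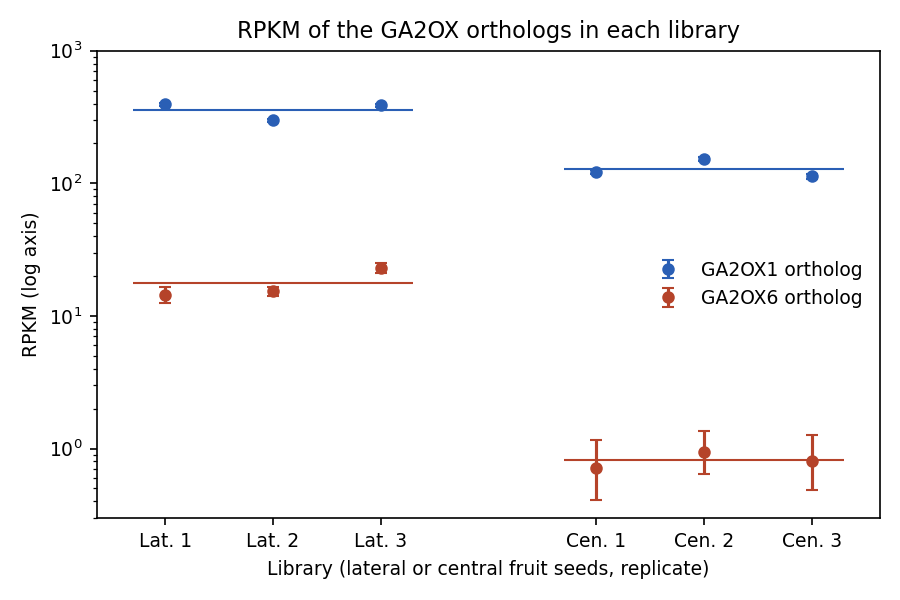
RPKM (log axis) of the GA2OX1 ortholog (blue) and the GA2OX6 ortholog (red) in each lateral and central fruit seed library. Points are deposited values, bars exact Poisson 95% intervals from the recovered reads and lines group means. The 4 sets of points do not overlap: the lateral values of the GA2OX6 ortholog, up to 23.0 RPKM, lie below the central values of the GA2OX1 ortholog, from 113 RPKM.

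Both genes were higher in lateral fruit seeds. The mean of the *GA2OX6* ortholog was 17.6 ± 4.73 RPKM in lateral and 0.825 ± 0.117 RPKM in central fruit seeds (SD, n = 3 each), and these means differed by a factor of 21.3. On the log2(RPKM + 0.5) scale, which understates the change of a gene this low in central fruit seeds, the fold change was 3.74 with a standard error of 0.20 (adjusted p = 5.8e-05, limma with Benjamini-Hochberg adjustment over 37230 gene models). The mean of the *GA2OX1* ortholog was 360 ± 53.9 RPKM in lateral and 129 ± 20.6 RPKM in central fruit seeds (SD, n = 3 each), and these means differed by a factor of 2.79. Its log2 fold change was 1.48 with a standard error of 0.14 (adjusted p = 0.00078, same test). Of all gene models tested, 3.39% were called higher in lateral fruit seeds (adjusted p of at most 0.05 and at least 1.5-fold), and 12.4% had every lateral value above every central value. With the sequencing lane as a covariate the share called higher was 1.05% (392 gene models). The log2 fold changes of the *GA2OX6* and *GA2OX1* orthologs in that fit were 4.15 and 1.59. Its lane term takes up lateral replicates 1 and 2, so it sets lateral replicate 3 alone against the central libraries. The study named this pair among the genes it found up-regulated in these same libraries, so both calls repeat that choice and are not independent evidence of its direction. In bulk RNA, a change in the level per cell and a change in the number of cells that express the gene cannot be told apart.

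The exact permutation test, 2-sided, gave a p of 0.1 for each gene, the smallest that 3 libraries a group allow. Among the libraries of lane 7 alone, the log2(RPKM + 0.5) of lateral replicate 3 was above the central mean by 4.15 for the *GA2OX6* ortholog and by 1.59 for the *GA2OX1* ortholog. These values rest on 1 lateral library, which was the highest of the 3 lateral libraries for the *GA2OX6* ortholog, and the part of the lane in the differences cannot be told apart from that of the replicate.

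The relative increase was larger for the weaker gene and the absolute increase larger for the stronger gene. The *GA2OX6* ortholog gained 16.7 RPKM, and the *GA2OX1* ortholog gained 231 RPKM, 13.8 times as much. Of the 248 RPKM that the pair gained together, 6.76% came from the *GA2OX6* ortholog. By fold change the order was the other way round, with a ratio of means 7.65 times as large for the *GA2OX6* ortholog. Even so, its lateral mean amounted to 13.6% of the central mean of the *GA2OX1* ortholog.

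Among the 1262 gene models called higher, the *GA2OX6* ortholog was 52nd by log2 fold change and 370th by gain in RPKM. The *GA2OX1* ortholog was 587th by log2 fold change and 20th by gain in RPKM. The median log2 fold change of these gene models was 1.39, against which the *GA2OX1* ortholog lay near the middle and the *GA2OX6* ortholog near the top. These positions describe the genes among those called without a term for the lane and carry no test.

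**Figure D2:**
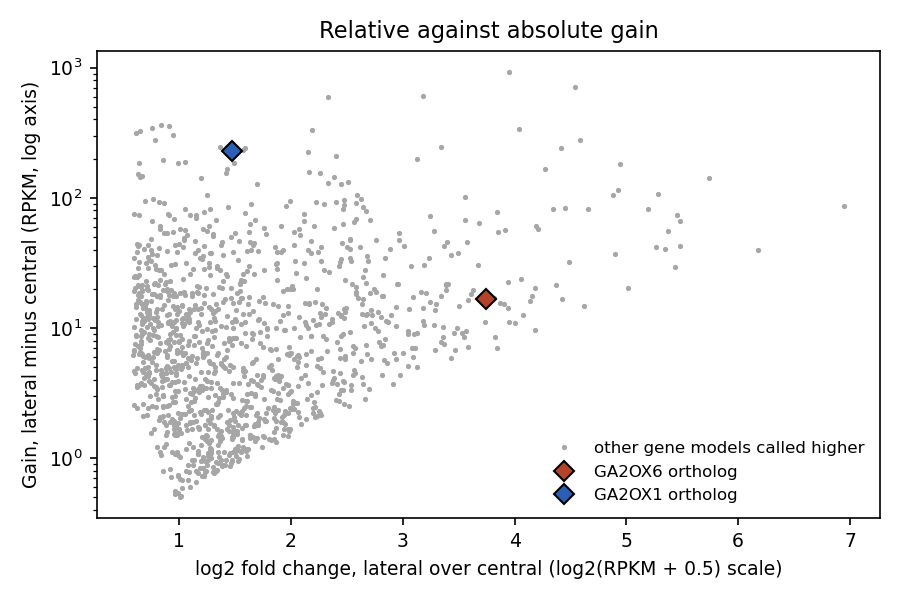
Gain in mean RPKM, lateral minus central (log axis), against the log2 fold change on the log2(RPKM + 0.5) scale, for the 1262 gene models called higher in lateral fruit seeds. The GA2OX6 ortholog (red) lies at a fold change of 3.74 and a gain of 16.7 RPKM, the GA2OX1 ortholog (blue) at 1.48 and 231 RPKM.

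The ratio of the genes within a library does not depend on how that library is scaled, so it shows directly whether the genes rose by unequal factors. The *GA2OX1* ortholog exceeded the *GA2OX6* ortholog 27.4, 19.5 and 16.8 times in lateral replicates 1 to 3, against 170, 160 and 140 times in central replicates 1 to 3. The gap between the genes was thus narrower in every lateral library than in any central library. The log2 fold change of the *GA2OX6* ortholog was larger than that of the *GA2OX1* ortholog by 2.27 (standard error 0.24, adjusted p = 4.9e-06 in limma on the differences from the *GA2OX1* ortholog, with Benjamini-Hochberg adjustment). In that fit all gene models share the noise of the same subtracted gene, which makes its p too small. From the spread of the 6 per-library differences alone, chosen after seeing the data, the 95% interval of the difference was 1.65 to 2.88. Without the added 0.5 RPKM the difference in the mean log2 ratio was 2.91. The exact permutation test of the 6 differences gave a 2-sided p of 0.1, again the smallest possible.

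Expressed as shares of the summed RPKM of the pair, the *GA2OX6* ortholog made up 3.52%, 4.89% and 5.61% in lateral replicates 1 to 3, against 0.583%, 0.619% and 0.71% in central replicates 1 to 3. The mean share was 4.67% ± 1.06 in lateral and 0.638% ± 0.0652 in central fruit seeds (SD, n = 3 each), 7.33 times as large (exact permutation p = 0.1, 2-sided). This share is another form of the ratio above and not a second result. Among the lateral libraries, the exact binomial interval of replicate 1 (3.07% to 4.02%) lay below those of replicate 2 (4.51% to 5.28%) and replicate 3 (5.17% to 6.07%). The central intervals overlapped, the lowest of them starting at 0.334% and the highest ending at 1.11%.

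**Figure D3:**
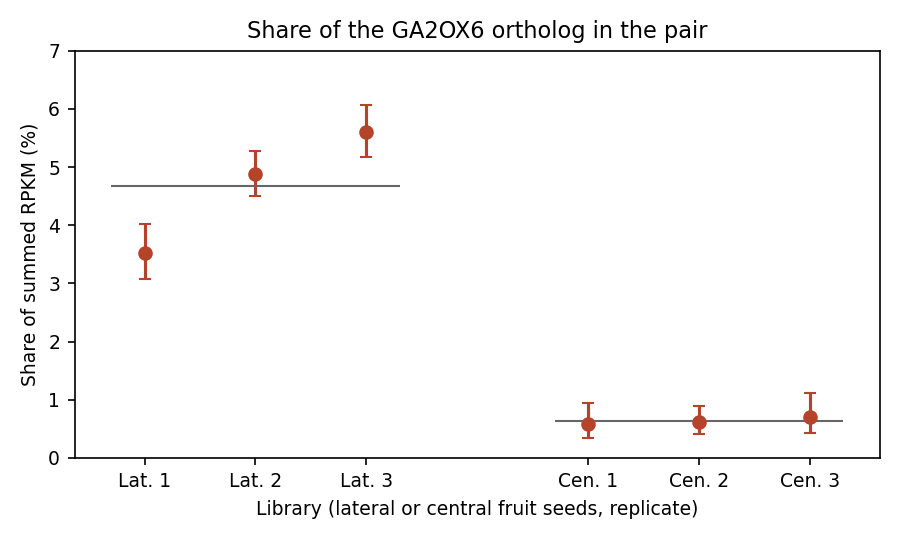
Share of the GA2OX6 ortholog in the summed RPKM of the pair (%) in each lateral and central library. Points are shares, bars exact binomial 95% intervals rescaled to RPKM and lines group means, at 4.67% in lateral and 0.638% in central fruit seeds.

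The pair together had 409, 313 and 410 RPKM in lateral replicates 1 to 3, against 123, 153 and 114 RPKM in central replicates 1 to 3. Relative to the summed RPKM of the library, which varied little between libraries, this was 413, 305 and 414 parts in 1e+06 in the lateral replicates and 125, 159 and 114 parts in 1e+06 in the central replicates. The mean of the summed pair was 2.90 times as high in lateral fruit seeds, close to the 2.79 of the *GA2OX1* ortholog, which made up most of the sum in every library.

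The replicates of a group were not ordered in the same way for both genes. In lateral fruit seeds replicate 3 was the highest for the *GA2OX6* ortholog but replicate 1 for the *GA2OX1* ortholog, and the lowest was replicate 1 for the *GA2OX6* ortholog but replicate 2 for the *GA2OX1* ortholog. In central fruit seeds replicate 2 was the highest for both, and the lowest was replicate 1 for the *GA2OX6* ortholog and replicate 3 for the *GA2OX1* ortholog. With 3 libraries a group, these orders are a description.

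The spread between the libraries of a group differed between the genes and types of seed. For the *GA2OX6* ortholog the coefficient of variation (CV) was 26.9% in lateral fruit seeds, where counting error alone amounts to 4.96%. In central fruit seeds its CV was 14.2%, less than the 21.7% that counting error amounts to on these 65 reads, so no variation between central pools was detectable at this depth. For the *GA2OX1* ortholog the CV was 15.0% in lateral and 15.9% in central fruit seeds, against counting errors of 1.14% and 1.75% in the same order. Gene models within 1.5-fold of its level had median CVs of 7.27% in lateral (403 models) and 6.19% in central fruit seeds (1323 models), and 8.44% and 7.18% of them varied more than it did. Of the 6153 gene models within 1.5-fold of the lateral level of the *GA2OX6* ortholog, 4.0% varied more, around a median CV of 8.25%. In central fruit seeds the *GA2OX6* ortholog lay on the other side, with 85.2% of the 5168 gene models of like level varying more, around a median CV of 31.3%. Both genes thus varied more between lateral libraries than most gene models of like level, and the *GA2OX1* ortholog also did between central libraries. Lateral replicate 3, the highest for the *GA2OX6* ortholog, was in another lane than lateral replicates 1 and 2. Lane and seed pool therefore cannot be told apart in the lateral spread of that gene. For the *GA2OX1* ortholog the highest and lowest lateral libraries, replicate 1 (395 RPKM) and replicate 2 (298 RPKM), shared lane 8. Its central libraries all shared lane 7. The cause of the spread was not tested. The central CV of the *GA2OX6* ortholog is below its counting error and is no sign of low variation between pools. Gene models of like level were matched on RPKM and not on reads.

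Ranked among all 63517 gene models by RPKM, the *GA2OX6* ortholog held places 11593, 10852 and 7965 in lateral replicates 1 to 3, against 33114, 31722 and 32524 in central replicates 1 to 3. In central fruit seeds it was thus close to the median gene model, whose level was 0.88, 0.943 and 0.909 RPKM in replicates 1 to 3. Counting only gene models above 0, it was within the top 16.2% to 24.6% in the lateral and 64.6% to 70.0% in the central libraries. The *GA2OX1* ortholog held places 305, 499 and 327 in lateral replicates 1 to 3, against 1367, 1012 and 1536 in central replicates 1 to 3. It therefore belonged to the top 0.48% to 0.786% of all gene models in the lateral and to the top 1.59% to 2.42% in the central libraries.

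Few gene models of like central level had a lateral mean as high as that of the member. The study named the pair as up-regulated in these same libraries, so the counts are a description and no test. Besides the *GA2OX6* ortholog, 5168 gene models had a central mean within 1.5-fold of its own, with a median of 0.847 RPKM in lateral fruit seeds, and 14 of them had a lateral mean at least as high. For the *GA2OX1* ortholog there were 1323 such gene models, with a lateral median of 119 RPKM, of which 6 had a lateral mean at least as high. In these sets of like central level, 2.98% and 1.36% of the gene models were called higher in lateral fruit seeds, in the same order.

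**Figure D4:**
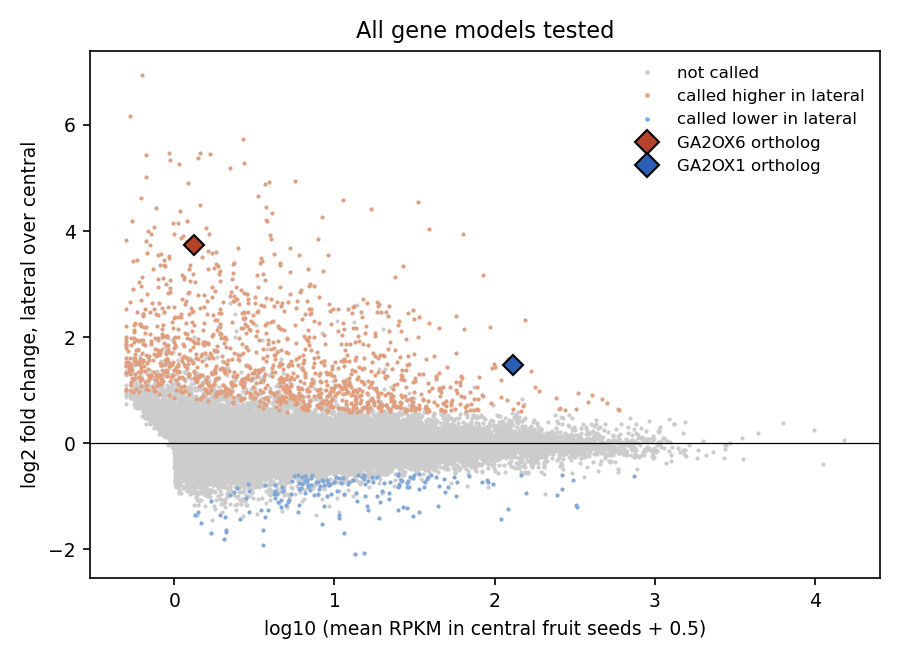
Log2 fold change, lateral over central, of all 37230 gene models tested against the log10 of the mean RPKM in central fruit seeds plus 0.5. Colours mark the gene models called higher (3.39%) and lower (0.459%) in lateral fruit seeds, and diamonds the GA2OX6 ortholog (red, 3.74) and the GA2OX1 ortholog (blue, 1.48).

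The gene model most like each member was sought as the one with the smallest root mean square difference in log2(RPKM + 0.5) over the 6 libraries, each profile centred on its own mean. For the *GA2OX6* ortholog it was MDP0000261127, at 0.21, with 7.0, 8.09 and 16.0 RPKM in lateral replicates 1 to 3, against 0.313, 0.622 and 0.324 RPKM in central replicates 1 to 3. Its levels in central replicates 1 and 3 rest on 11 and 12 reads. For the *GA2OX1* ortholog it was MDP0000906293, at 0.077, with 29.7, 19.9 and 25.8 RPKM in lateral replicates 1 to 3, against 7.67, 9.30 and 7.42 RPKM in central replicates 1 to 3. Both were chosen for their likeness over these same libraries, so their profiles are a description. The members differed from each other by 1.16 on this measure. Of the 37228 other gene models, 546 were closer to the *GA2OX6* ortholog than the *GA2OX1* ortholog was, and 36512 were closer to the *GA2OX1* ortholog than the *GA2OX6* ortholog was. The measure depends on the size of the change, so gene models that hardly changed also count as closer to the *GA2OX1* ortholog. These counts therefore do not show a shared pattern. The sources used here give no names for these gene models.

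The study names 10 other genes of hormone synthesis, transport and response by identifier, in the ethylene, abscisic acid and auxin pathways. All 10 were tested, and 6 were called higher, 2 lower and 2 neither way in lateral fruit seeds, beside 3.39% and 0.459% of all gene models. Their median log2 fold change was 2.3, against -0.021 over all gene models tested. Many were chosen by the study on these same libraries, so the counts are not independent evidence of a direction. Of these 10 genes, 2 had a larger log2 fold change than the *GA2OX6* ortholog and 6 a larger one than the *GA2OX1* ortholog, while none reached the RPKM of the *GA2OX1* ortholog in either type of seed. Genes of GA synthesis, GA receptors and the other GA2OX genes of apple are not paired with identifiers in the sources used here and were not analysed here.

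**Figure D5:**
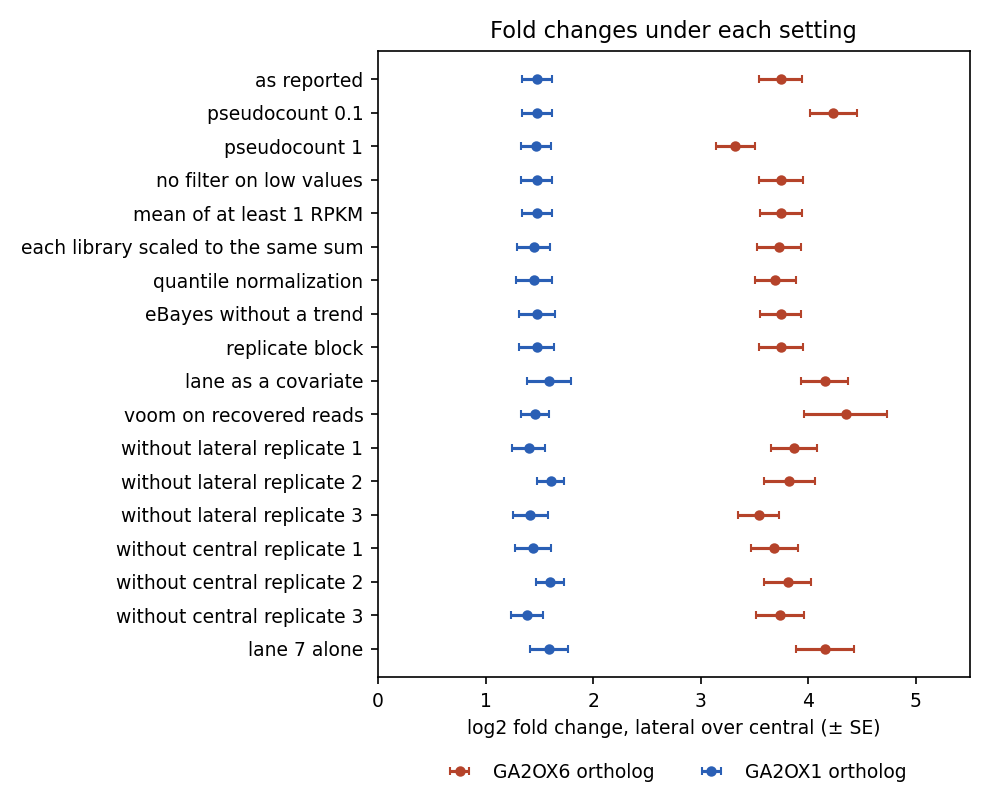
Log2 fold change, lateral over central, of the GA2OX6 ortholog (red) and the GA2OX1 ortholog (blue) under each setting tried, with bars for 1 standard error. The values of the GA2OX6 ortholog stay between 3.32 and 4.35 and those of the GA2OX1 ortholog between 1.39 and 1.61.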

How the data were processed

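RNA of seeds from lateral and central fruits at 20 DAPF was measured in 6 libraries, grouped by their titles. The authors trimmed single-end Illumina reads, mapped them on version v1.0 of the apple genome and computed RPKM per gene model in the CLC Genomics Workbench, and these RPKM values were deposited without scaling between libraries (version not given in the sources used here). No coordinates were used. All 6 columns were matched to samples through the file header.

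Whole reads were recovered by trying model lengths of 60 to 30000 bases and keeping the shortest that, multiplied by RPKM and by the mapped reads listed in the study, gave a whole number (within 0.001) for all libraries. This succeeded for all 55261 gene models above 0. Success does not show that each length is right, since many lengths were tried and reads in few libraries constrain the length little. The shortest fitting length can also be a fraction of the true one, with the reads reduced by the same factor. Recovered reads amount to 99.4% of mapped reads, so multiply mapped reads are counted, and genes with near-identical copies are uncertain. Recovered lengths were multiples of 3 in 97.4% of models, so they are coding lengths.

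RPKM values are not counts, so limma 3.58.1 (R 4.3.3; lmFit, eBayes with a trend) was run on log2(RPKM + 0.5) in the 37230 gene models whose mean reached 0.5 RPKM in lateral or central fruit seeds, with Benjamini-Hochberg adjustment over all of them. Calls needed an adjusted p of at most 0.05 and at least 1.5-fold. The study's own test was not run. Exact permutation tests, intervals and plots used Python 3.11.15, numpy 2.4.6, pandas 2.3.3, scipy 1.17.1 and matplotlib 3.10.9. On simulated reads (dispersion 0.03, 200 genes changed 4-fold, all above a lower limit of reads), 100% of the changed genes were called by limma. So were 23 unchanged gene models among 36776 tested. These false calls were a larger share of all calls than the adjusted p limit of 0.05 allows for.

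The genes named are the pair and, for each, the gene model with the most similar profile. The members and lists were chosen with earlier results of these data known. Alternatives were other pseudocounts (0.1 and 1), filters, scalings, eBayes without a trend, the replicate number as a block, the lane as a covariate, each library left out in turn and voom on recovered reads. Lane 7 alone and the unmoderated difference were chosen after seeing the data. None of the 51804 genes of the RefSeq table at hand is paired with these identifiers, so no sequences are shown.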

Additional observations from a re-analysis of the deposited data

How the results depend on the processing

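Both genes kept their direction and their call, and the difference between them its direction and its side of the threshold, in all 49 results from the settings tried. These results are not independent, since all reuse the same libraries and the difference is computed from the fold changes of the pair. In every fit of the difference except the unmoderated one, the p is too small for the reason given above. Leaving out single libraries gave log2 fold changes of 3.54 to 3.87 for the *GA2OX6* ortholog and of 1.39 to 1.61 for the *GA2OX1* ortholog. In the same fits their difference ran from 2.12 to 2.46, the mean share of the *GA2OX6* ortholog from 4.20% to 5.25% in lateral and from 0.601% to 0.665% in central fruit seeds, the gains from 14.0 to 18.3 RPKM and from 213 to 262 RPKM, and the count of gene models called from 968 to 1292, against 1433 with all libraries (1262 higher and 171 lower). The pseudocount moved the *GA2OX6* ortholog, with a log2 fold change of 4.23 at 0.1 and 3.32 at 1, since its central level is close to the amount added, and the *GA2OX1* ortholog by less than 0.01. Voom on the recovered reads gave 4.35 and 1.46. The count of gene models called fell to 431 (392 higher and 39 lower) with the lane as a covariate and to 360 (335 higher and 25 lower) in lane 7 alone, where lateral replicate 3 is the only lateral library and is assumed to vary like the central ones. The log2 fold changes of the *GA2OX6* and *GA2OX1* orthologs were 4.15 and 1.59 in both of these fits. The lane term takes up lateral replicates 1 and 2, so the fits make the same comparison and are not separate settings.

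With the replicate number as a block, 1035 gene models were called higher and 96 lower, and the log2 fold changes of the pair were 3.74 and 1.48 as without it (adjusted p = 0.00028 and 0.0038, limma with Benjamini-Hochberg adjustment). The sources used here do not say whether samples of the same number are pairs. Deviations of lateral and central libraries of the same number correlated at 0.012, -0.12 and -0.13 across gene models. Only lateral replicate 1 correlated best with the central library of its own number. The deviations are centred within groups of 3 libraries, so these correlations cannot decide whether the samples are paired. The depth limits the *GA2OX6* ortholog in central fruit seeds, where 16 to 30 reads fix its level.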
